A study of Homo sapiens with 6 samples.

Results

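The collagen genes are the rows of the gene count table whose name is COL, a type number, A and a chain number, and 44 of the 36601 rows matched. They fell into 11 fibrillar collagens, 6 basement membrane collagens (type IV) and 27 other collagens. The data came from U2OS, a human osteosarcoma line of bone-derived mesenchymal cells, carrying a doxycycline-inducible TDP-43-mNLS-Clover, a fluorescent TDP-43 whose nuclear localization signal is mutated. The aggregates group was transfected with 50 nM fibril seeds made of the TDP-43 low-complexity domain and sorted by imaging flow cytometry for Clover aggregates. The diffuse group was mock transfected with storage buffer and sorted for diffuse Clover signal. Both groups carried the induced transgene, were collected 48 hours after transfection and held 3 libraries each from separate transfections of the same line. Fibril exposure, sort gate and group coincide, so their effects cannot be told apart.

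Collagens are triple-helical proteins made of alpha chains. Fibrillar collagens assemble outside the cell into the cross-striated fibrils that give bone, skin and tendon their tensile strength. Type IV collagens form the sheet-like network of basement membranes, and the remaining types decorate fibrils, form beaded filaments or hexagonal lattices, or span the cell membrane. Type I collagen, built from the COL1A1 and COL1A2 chains, is the main protein of bone matrix and a product of osteoblasts.

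The libraries held 41528336 to 46863013 gene counts in aggregates and 40279084 to 43091428 in diffuse cells, so that a count of 1 was worth 0.0212 to 0.0251 CPM (counts scaled to a common total and by TMM, a normalization that removes differences in library composition). TARDBP, the gene of TDP-43, was lower in aggregates, at 2581 ± 42.5 CPM against 7440 ± 218 CPM in diffuse cells, a count in which reads of the transgene and the endogenous gene cannot be told apart. The summed level of 8 mesenchymal and osteosarcoma markers was 3946 to 4225 CPM in aggregates and 4999 to 5318 CPM in diffuse cells, with TWIST1 near 0 in all 6 libraries. The members did not move together. By the test defined below, ALPL and RUNX2 were higher in aggregates, VIM, FN1 and S100A4 were lower, and CDH2 and SPARC did not pass. Summed epithelial markers ran from 10.9 to 11.4 CPM in aggregates and from 21.7 to 22.7 CPM in diffuse cells, mostly through KRT14 (1.52 ± 0.202 against 12.1 ± 0.555 CPM). Endothelial markers summed to 1.59 to 2.25 CPM in aggregates and 1.83 to 2.31 CPM in diffuse cells, and blood markers to 0.212 to 0.362 CPM in aggregates and 0.352 to 0.526 CPM in diffuse cells. The part of these marker differences in the collagen results was not tested.

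Below, errors are SD over n = 3 libraries per group, fold changes are aggregates over diffuse, and "rose" or "fell" means an adjusted p under 0.05 in edgeR's quasi-likelihood test, adjusted over all 17839 genes tested. Most of the transcriptome passed that threshold (75.4% of genes tested, 37.8% higher and 37.6% lower in aggregates). In the bulk libraries, less RNA per cell and fewer cells making it cannot be told apart.

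Of the 44 collagens, 40 had enough counts to be tested. Aggregates had lower levels of 20 of these 40 (50.0%) and higher levels of 10 (25.0%), and 10 did not pass. The share called in either direction, 75%, was close to that of all genes, while lower calls stood above and higher calls below their background shares. Falls past 2-fold made up 25.0% of the tested collagens, against 8.11% of all genes. Rises past 2-fold were 3 of the 40, against 6.68% of all genes. These include COL2A1 and COL21A1 among the falls and COL25A1 among the rises. Each passed the filter on low counts only through the group where it was higher, which favors a difference. Among the 24 collagens of at least 5 CPM, 5 fell past 2-fold (20.8%) and 1 rose past it. The shares of all genes at that level were not computed. The groups did not overlap for 32 of the 40 (80.0%, against 76.2% of all genes tested), and the median log2 fold change was -0.33, against 0.01 over all genes.

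**Figure D1:**
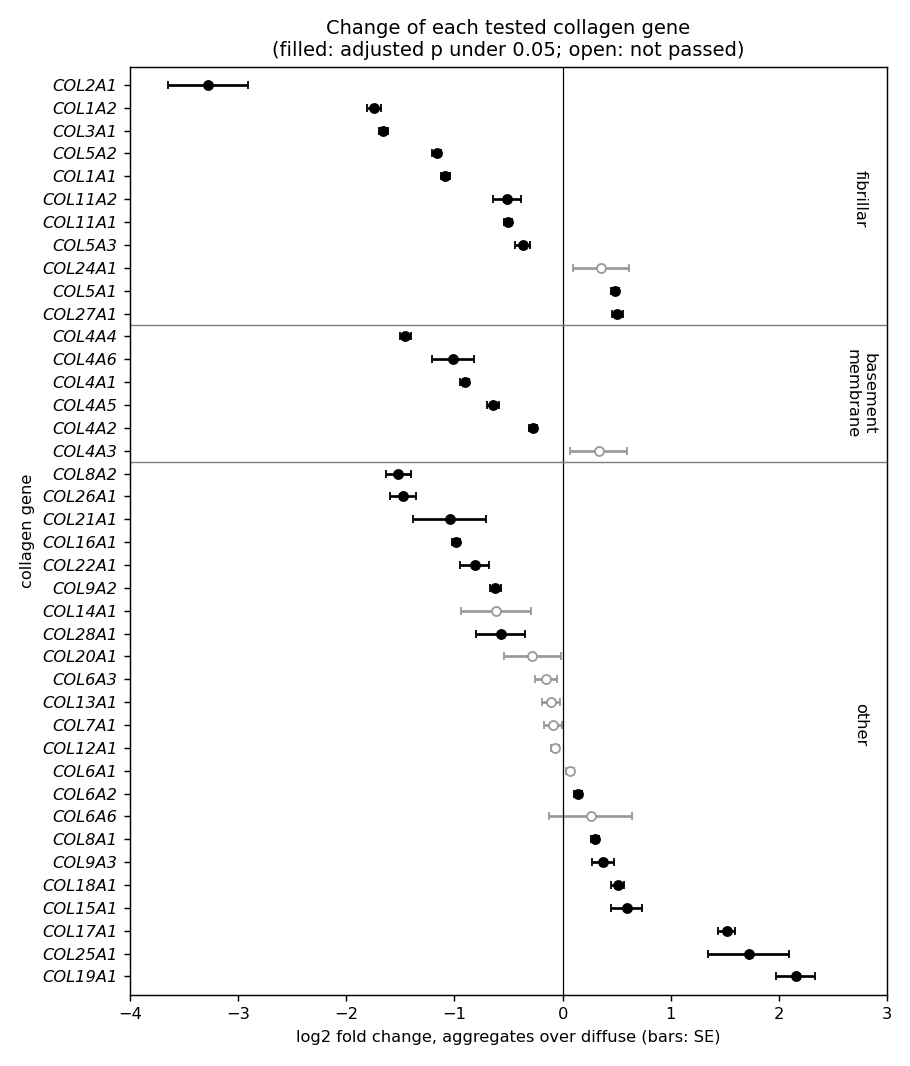
Log2 fold change of each of the 40 tested collagens, aggregates over diffuse, with standard errors as bars, grouped by class and ordered within it. Filled points passed an adjusted p of 0.05. Of the fibrillar and basement membrane collagens, 13 filled points lie left of 0 and 2 right of it, while the other collagens hold 7 on the left and 8 on the right.

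Fibrillar collagens fell more often than they rose. All 11 were tested: 8 fell (72.7%, against 37.6% of all genes tested), 2 rose (18.2%, against 37.8%) and COL24A1 did not pass. The median log2 fold change was -0.51. Falls past 2-fold, COL2A1 among them, were 5 (45.5% of those tested, against 8.11% of all genes). COL1A1 (chromosome 17, 50183289 to 50201632, minus strand, GENCODE 29 on GRCh38) was the most abundant collagen transcript in both groups. It stood at 1584, 1397 and 1567 CPM in aggregates 1, 2 and 3 and at 3296, 3146 and 3191 CPM in diffuse 1, 2 and 3. Every aggregate library lay below every diffuse library, and the log2 fold change was -1.08 (SE 0.04, edgeR adjusted p = 6.7e-40).

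Its partner chain COL1A2 (chromosome 7, 94394561 to 94431232, plus strand) was far less abundant and fell further. Its levels were 8.11, 6.67 and 7.29 CPM in aggregates, against 25.7, 24.6 and 23.4 CPM in diffuse cells, again without overlap, with a log2 fold change of -1.74 (SE 0.06, edgeR adjusted p = 2.5e-43). Type III collagen, encoded by COL3A1 alone, co-assembles with type I in skin and vessel fibrils. COL3A1 had 57.0, 51.6 and 57.2 CPM in aggregates and 171, 178 and 173 CPM in diffuse cells, a log2 fold change of -1.66 (SE 0.04, edgeR adjusted p = 1.5e-58). COL2A1, the cartilage collagen, was near the limit of counting, with 5, 2 and 3 counts in aggregates and 28, 36 and 31 in diffuse cells. It passed the filter on low counts through the diffuse libraries, and its log2 fold change of -3.28 (SE 0.37) rests on those few reads.

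The chains of type V collagen, which initiates and limits the width of type I fibrils, moved in opposite directions. COL5A1 (chromosome 9, 134641774 to 134844843, plus strand) rose, with 149, 134 and 148 CPM in aggregates and 102, 99.0 and 107 CPM in diffuse cells (log2 fold change 0.48, SE 0.04, edgeR adjusted p = 1e-19). COL5A2 (chromosome 2, 189031896 to 189225312, minus strand) fell, with 38.0, 33.8 and 38.5 CPM in aggregates and 80.1, 83.4 and 83.2 CPM in diffuse cells (log2 fold change -1.16, SE 0.04, edgeR adjusted p = 1e-42). The groups of neither gene overlapped. COL5A3, the third type V chain, fell less, to 9.38 ± 0.678 CPM in aggregates against 12.1 ± 0.938 CPM in diffuse cells (log2 fold change -0.37).

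Type XI collagen forms the core of cartilage fibrils and shares chains with type V. COL11A1 had 164, 140 and 157 CPM in aggregates and 215, 222 and 217 CPM in diffuse cells, a fall of 0.51 on the log2 scale without overlap. COL11A2 fell by the same amount at a low level, 2.31 ± 0.241 CPM in aggregates and 3.31 ± 0.811 CPM in diffuse cells, and its groups overlapped. COL27A1, a fibrillar collagen of cartilage, was the other riser, with 35.6, 36 and 33.1 CPM in aggregates and 24.3, 25.5 and 24.0 CPM in diffuse cells (log2 fold change 0.51, SE 0.05, edgeR adjusted p = 1.05e-16). COL24A1 did not pass, at 0.64 ± 0.249 CPM in aggregates and 0.5 ± 0.116 CPM in diffuse cells.

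**Figure D2:**
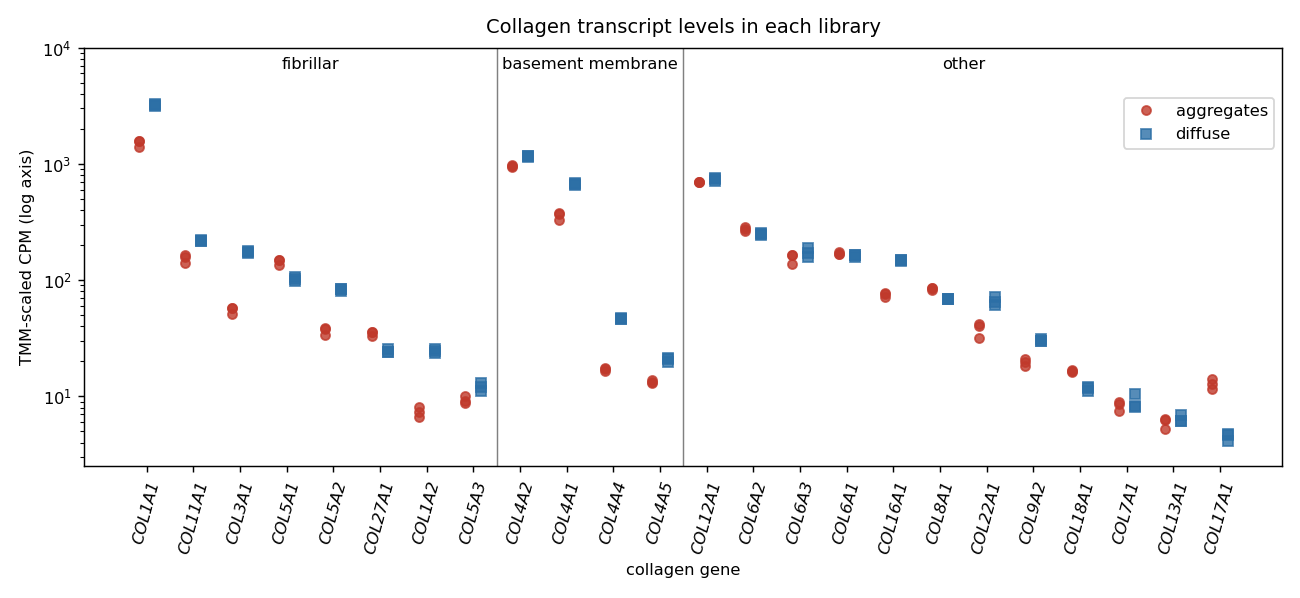
TMM-scaled CPM on a log axis of the 24 collagens with a mean of at least 5 CPM, by class, with 1 point per library (aggregates as circles, diffuse as squares). COL1A1 is highest in both groups. The groups stand clear of each other for 21 of the 24 genes, beside 76.2% of all genes tested, at any level.

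The 6 type IV genes lie in 3 head-to-head pairs, COL4A1 with COL4A2, COL4A3 with COL4A4 and COL4A5 with COL4A6. In each pair the genes run in opposite directions from a shared start region, which is why those regions are printed here beside the pair's values. They are read on the plus strand from RefSeq's promoter table (GRCh38.p14), and capitals mark the GC box GGGCGG and the CCAAT box, each searched on both strands. The stretch between the annotated RefSeq starts of COL4A1 and COL4A2 (chr13:110307158-110307283) is printed whole, at 126 bases. For the other pairs, 250 of the 418 bases between COL4A4 and COL4A3 (chr2:227164206-227164455) and 250 of the 379 between COL4A6 and COL4A5 (chrX:108439459-108439708) are printed, beginning next to the first-named gene.
COL4A1-COL4A2: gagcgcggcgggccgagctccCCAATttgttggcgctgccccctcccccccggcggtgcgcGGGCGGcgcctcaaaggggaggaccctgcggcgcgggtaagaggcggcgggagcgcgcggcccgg
COL4A4-COL4A3: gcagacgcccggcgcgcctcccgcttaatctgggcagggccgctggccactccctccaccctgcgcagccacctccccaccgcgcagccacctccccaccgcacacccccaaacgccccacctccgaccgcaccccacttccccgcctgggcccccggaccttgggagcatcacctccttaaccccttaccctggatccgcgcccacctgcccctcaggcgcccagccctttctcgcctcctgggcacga
COL4A6-COL4A5: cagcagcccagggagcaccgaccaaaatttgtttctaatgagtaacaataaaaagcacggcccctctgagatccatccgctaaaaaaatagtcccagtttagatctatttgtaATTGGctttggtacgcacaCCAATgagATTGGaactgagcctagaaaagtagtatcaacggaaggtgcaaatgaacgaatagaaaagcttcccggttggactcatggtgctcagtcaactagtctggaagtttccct

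The COL4A1-COL4A2 stretch was 80.2% G and C and held 1 GC box and 1 CCAAT box, which 34.6% and 21.1% of 35116 RefSeq promoter windows of that length also held. The COL4A4-COL4A3 stretch was 72.8% G and C and held neither. The COL4A6-COL4A5 stretch was 44.0% G and C with no GC box and 3 CCAAT boxes. Of promoter windows of 250 bases, 32% held at least 1 CCAAT box and 2.93% at least 3, while 42.6% held a GC box. GENCODE 29 places exons of other transcripts over 124, 89 and 39 bases of these stretches, so not every base is upstream of every transcript.

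Type IV transcripts were lower in aggregates for 5 of the 6 genes (83.3%, against 37.6% of all genes tested). None rose, against 37.8% of all genes, and the median log2 fold change was -0.77. COL4A1 and COL4A2 encode the chains of the network found in nearly all basement membranes. COL4A1 (chromosome 13, 110148963 to 110307233, minus strand) had 379, 326 and 371 CPM in aggregates and 674, 659 and 680 CPM in diffuse cells, a log2 fold change of -0.90 (SE 0.04, edgeR adjusted p = 1.1e-28). COL4A2 (chromosome 13, 110305812 to 110513209, plus strand) had 983, 931 and 960 CPM in aggregates and 1163, 1158 and 1155 CPM in diffuse cells, a log2 fold change of -0.27 (SE 0.04, edgeR adjusted p = 4e-10). Neither gene's groups overlapped. The COL4A2 call was lost when the fall was tested against a fold of 1.2 in place of no change (adjusted p = 0.278, the highest of 14 alternatives, of which the lowest was 4.6e-19).

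The COL4A3, COL4A4 and COL4A5 chains make the network of the kidney glomerulus, and COL4A6 joins COL4A5 in basement membranes such as those of smooth muscle. COL4A4 had the largest type IV fall, with 17.5, 16.6 and 17.1 CPM in aggregates and 46.7, 47.2 and 46.3 CPM in diffuse cells (log2 fold change -1.45, SE 0.05, edgeR adjusted p = 3.3e-47). Its head-to-head neighbour COL4A3 did not pass, at 0.857, 0.446 and 0.531 CPM in aggregates and 0.376, 0.619 and 0.445 CPM in diffuse cells, and the groups overlapped. Counts on COL4A3 are also uncertain because AC097662.1, at a level above it (1.32 CPM in aggregates, 1.11 CPM in diffuse cells), overlaps it on the other strand and the strand setting of the counting is not given. COL4A5 fell to 13.7, 13.2 and 12.9 CPM in aggregates, against 19.8, 21.4 and 20.9 CPM in diffuse cells (log2 fold change -0.64). COL4A6 fell to 0.683 ± 0.0298 CPM in aggregates, against 1.38 ± 0.171 CPM in diffuse cells (log2 fold change -1.01, SE 0.19, edgeR adjusted p = 2.2e-06).

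Side by side, the head-to-head pairs gave log2 fold changes of -0.90 and -0.27 (COL4A1 and COL4A2), -1.45 and 0.33 (COL4A4 and COL4A3, the second not passing) and -1.01 and -0.64 (COL4A6 and COL4A5). The GENCODE 29 gene bodies of COL4A1 and COL4A2 overlap by 1422 bases, while 111 bases separate COL4A4 from COL4A3 and 346 bases separate COL4A6 from COL4A5. Among the other neighbouring collagens, COL3A1 and COL5A2 lie tail to tail 19149 bases apart and both fell past 2-fold (-1.66 and -1.16). COL6A1 and COL6A2 follow each other on the same strand of chromosome 21, 93046 bases apart, at 0.07 and 0.14. These pairs are descriptions of position, with no test of whether neighbours move together.

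Among the other collagens, 23 of 27 were tested. In aggregates, 8 rose (34.8%), 7 fell (30.4%) and 8 did not pass, with a median log2 fold change of -0.09. Both shares were near those of all genes tested (37.8% higher, 37.6% lower). The fibril-associated collagens, which bind the surface of fibrils through interrupted helices, held 9 tested genes, of which 2 rose (22.2%) and 4 fell (44.4%). COL12A1, a ligand of type I fibrils and the most abundant of them, had 699, 703 and 704 CPM in aggregates and 711, 758 and 737 CPM in diffuse cells. The groups did not overlap, yet the log2 fold change of -0.07 (SE 0.04) did not pass (edgeR adjusted p = 0.0913). It passed without diffuse library 1 (-0.10, adjusted p = 0.0284) and turned positive after a correction for GC content and length (0.08, adjusted p = 0.0331), in a range of 0.0284 to 1.0 over 14 alternatives.

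COL16A1, a collagen found at the fibril surface and near basement membranes, fell, with 77.5, 71.0 and 76.3 CPM in aggregates and 146, 150 and 149 CPM in diffuse cells (log2 fold change -0.99, SE 0.04, edgeR adjusted p = 8.9e-43). COL22A1, a collagen of tissue junctions such as that of muscle and tendon, had 42.0, 31.7 and 39.9 CPM in aggregates and 65.4, 61.5 and 72.2 CPM in diffuse cells. Its fall of 0.81 on the log2 scale (SE 0.13, edgeR adjusted p = 0.00339) came with a wider spread between libraries than that of COL16A1, but the groups did not overlap. The type IX chains, which coat cartilage fibrils, moved apart: COL9A2 fell to 19.7 ± 1.33 CPM in aggregates against 30.3 ± 0.572 CPM in diffuse cells (log2 fold change -0.62), and COL9A3 rose to 4.42 ± 0.395 CPM in aggregates against 3.42 ± 0.107 CPM in diffuse cells (0.37). The COL9A3 call was lost against a fold of 1.2 (adjusted p = 0.0888, the highest of 13 alternatives, of which the lowest was 1.6e-05).

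COL19A1 had the largest rise of any tested collagen. It had 2.39, 2.27 and 2.22 CPM in aggregates and 0.401, 0.571 and 0.562 CPM in diffuse cells (log2 fold change 2.15, SE 0.18, edgeR adjusted p = 4.1e-19), and the groups lay far apart at a low level. Its gene body overlaps that of LMBRD1 on the other strand by 666 bases, and LMBRD1 stood at 23.6 CPM in aggregates and 23.9 CPM in diffuse cells. COL21A1 fell at a low level (0.203 ± 0.0553 CPM in aggregates, 0.425 ± 0.0202 CPM in diffuse cells, log2 fold change -1.04, edgeR adjusted p = 0.00401), a call that DESeq2 did not make (adjusted p = 0.0624, the highest of 13 alternatives, of which the lowest was 0.00372), and it passed the filter on low counts through the diffuse libraries. COL14A1, at 0.267 ± 0.124 CPM in aggregates and 0.41 ± 0.0144 CPM in diffuse cells, did not pass (adjusted p = 0.0798) and passed without aggregates library 3 (0.0247, in a range to 0.415 over 13 alternatives). All 3 of its diffuse libraries but only 2 of its aggregate libraries were over the cutoff of the filter on low counts. COL20A1 did not pass either, at 0.452 ± 0.0993 CPM in aggregates and 0.554 ± 0.0195 CPM in diffuse cells.

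Of the beaded-filament type VI collagens, which surround many connective tissue cells, 1 of the 4 tested rose and 3 did not pass, while COL6A5 had too few counts for the test and is given further on. COL6A2 rose by 0.14 on the log2 scale, with 286, 267 and 273 CPM in aggregates and 256, 243 and 249 CPM in diffuse cells (edgeR adjusted p = 0.00024). That call was lost against a fold of 1.2 (adjusted p = 1.0, in a range down to 1.2e-10 over 14 alternatives). COL6A1 had 176, 168 and 169 CPM in aggregates and 166, 158 and 164 CPM in diffuse cells and did not pass (log2 fold change 0.07, edgeR adjusted p = 0.0718). It passed with library totals as the only scaling (0.0238), among genes of at least 5 CPM (0.014) and with a GC and length correction (1.3e-05), in a range up to 1.0 over 14 alternatives. COL6A1 also passed with the replicate numbers as a block, as given at the end. COL6A3 did not pass, with 164, 138 and 164 CPM in aggregates and 172, 158 and 189 CPM in diffuse cells, values that overlap (log2 fold change -0.16, edgeR adjusted p = 0.234). It passed without diffuse library 2 (-0.22, adjusted p = 0.0303), with no filter on low counts (0.0038) and with the replicate numbers as a block (0.00015), the lowest of 14 alternatives, of which the highest was 0.852. COL6A6 stayed near 0.248 CPM in aggregates and 0.21 CPM in diffuse cells.

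The network collagens of type VIII, found in vessel walls and under the corneal endothelium, also split. COL8A1 rose, with 85.5, 85.0 and 82.9 CPM in aggregates and 69.3, 68.7 and 68.3 CPM in diffuse cells (log2 fold change 0.30, SE 0.04, edgeR adjusted p = 2.5e-11). Against a fold of 1.2 that call was lost (adjusted p = 0.121, in a range down to 2.5e-16 over 14 alternatives). COL8A2 fell, with 1.60, 1.64 and 1.69 CPM in aggregates and 4.71, 4.41 and 5.01 CPM in diffuse cells (log2 fold change -1.52, SE 0.12, edgeR adjusted p = 1.1e-21).

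The multiplexins COL15A1 and COL18A1, collagens of the basement membrane zone outside type IV, both rose. COL18A1, whose end fragment is endostatin, had 16.9, 16.1 and 16.6 CPM in aggregates and 12.1, 11.8 and 11 CPM in diffuse cells (log2 fold change 0.51, SE 0.06, edgeR adjusted p = 2.5e-12). It shares 20149 bases with SLC19A1 on the other strand, itself at 28.6 CPM in aggregates and 19.0 CPM in diffuse cells, so the source of these counts is uncertain without the strand setting. COL15A1 had 2.32 ± 0.23 CPM in aggregates and 1.55 ± 0.325 CPM in diffuse cells (log2 fold change 0.59, edgeR adjusted p = 0.00017). COL7A1, the anchoring fibril of the skin, did not pass at 8.39 ± 0.788 CPM in aggregates and 8.92 ± 1.32 CPM in diffuse cells. Counting these 3 genes with type IV gave 9 tested genes, 2 rising (22.2%), 5 falling (55.6%), and a median log2 fold change of -0.27.

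Of the transmembrane collagens, COL17A1 and COL25A1 rose. COL17A1, a component of hemidesmosomes in epithelia, had 12.9, 14.1 and 11.7 CPM in aggregates and 4.13, 4.76 and 4.64 CPM in diffuse cells (log2 fold change 1.52, SE 0.08, edgeR adjusted p = 7.9e-32). Of the 5 epithelial markers, ESRP1 rose, KRT14 and KRT5 fell and EPCAM and CDH1 did not pass. COL25A1, a collagen of neurons, rose on few reads, with 17, 25 and 18 counts in aggregates and 3, 5 and 9 in diffuse cells (log2 fold change 1.72, SE 0.37), and passed the filter on low counts through the aggregate libraries alone. COL13A1 did not pass (5.94 ± 0.577 CPM in aggregates, 6.41 ± 0.474 CPM in diffuse cells). COL26A1 fell to 1.59 ± 0.0803 CPM in aggregates, against 4.43 ± 0.225 CPM in diffuse cells (log2 fold change -1.47). COL28A1, with 0.765, 0.574 and 0.555 CPM in aggregates and 1.35, 0.691 and 0.797 CPM in diffuse cells, fell with overlapping groups (-0.57, edgeR adjusted p = 0.0195). That call was lost without diffuse library 1 (-0.24, adjusted p = 0.401), aggregates library 2 (0.0582) or aggregates library 3 (0.0855), in a range down to 0.0044 over 13 alternatives.

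The 4 collagens with too few counts for the test were COL6A5, COL9A1, COL10A1 and COL23A1. COL6A5 had 18, 11 and 9 counts in aggregates and 1, 3 and 2 in diffuse cells. COL9A1 had 0, 1 and 2 counts in aggregates and 5, 3 and 4 in diffuse cells. COL10A1, the collagen of hypertrophic cartilage, had 7, 9 and 4 counts in aggregates and 7, 4 and 13 in diffuse cells, and it lies within NT5DC1 on the other strand over all of its 39825 bases. COL23A1 had 1, 3 and 5 counts in aggregates and 0, 0 and 2 in diffuse cells.

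Summed over genes, the classes differed in how much of their level was lower. Fibrillar transcripts summed to 1960 ± 130 CPM in aggregates and 3854 ± 70.1 CPM in diffuse cells, a log2 ratio of -0.98. COL1A1 made up 77.3% of that sum in aggregates and 83.3% in diffuse cells, and without it the log2 ratio was -0.53, with 444 ± 26.5 CPM in aggregates and 643 ± 7.08 CPM in diffuse cells. Type IV transcripts summed to 1348 ± 54.9 CPM in aggregates and 1899 ± 10.4 CPM in diffuse cells (log2 ratio -0.49), and COL4A2 took 71.1% of the sum in aggregates and 61.0% in diffuse cells. The other collagens summed to 1579 ± 33.9 CPM in aggregates and 1684 ± 23.2 CPM in diffuse cells (log2 ratio -0.09). In all 3 classes every aggregate library lay below every diffuse library. The exact two-sided permutation p was 0.1 for each, the smallest that 3 libraries against 3 allow, so these sums cannot pass 0.05 in this design. Together the collagens took 0.509, 0.466 and 0.496% of all gene counts in aggregates 1, 2 and 3, against 0.743, 0.74 and 0.738% in diffuse 1, 2 and 3.

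Ratios between chains of the same collagen type, chosen after the values had been seen, show how unequal the changes were within types. The ratio of COL1A1 to COL1A2 counts was 195, 209 and 215 in aggregates and 128, 128 and 136 in diffuse cells. COL5A1 over COL5A2 was 3.91, 3.97 and 3.85 in aggregates and 1.27, 1.19 and 1.28 in diffuse cells, and COL4A1 over COL4A2 was 0.385, 0.35 and 0.386 in aggregates and 0.58, 0.569 and 0.589 in diffuse cells. The type I and type V ratios were thus higher and the type IV ratio lower in aggregates, with no overlap. COL8A1 over COL8A2 averaged 51.5 ± 2.22 in aggregates and 14.6 ± 0.991 in diffuse cells, the widest shift of the 8 ratios computed. COL9A2 over COL9A3 averaged 4.50 ± 0.583 in aggregates and 8.87 ± 0.131 in diffuse cells, and COL4A4 over COL4A5 averaged 1.29 ± 0.0329 in aggregates and 2.26 ± 0.0809 in diffuse cells. The type VI ratios moved least, with COL6A1 over COL6A2 at 0.62 ± 0.00866 in aggregates and 0.653 ± 0.00596 in diffuse cells and COL6A3 over COL6A2 at 0.563 ± 0.0413 in aggregates and 0.693 ± 0.057 in diffuse cells. Each of the 8 had an exact two-sided permutation p of 0.1, the smallest possible.

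**Figure D3:**
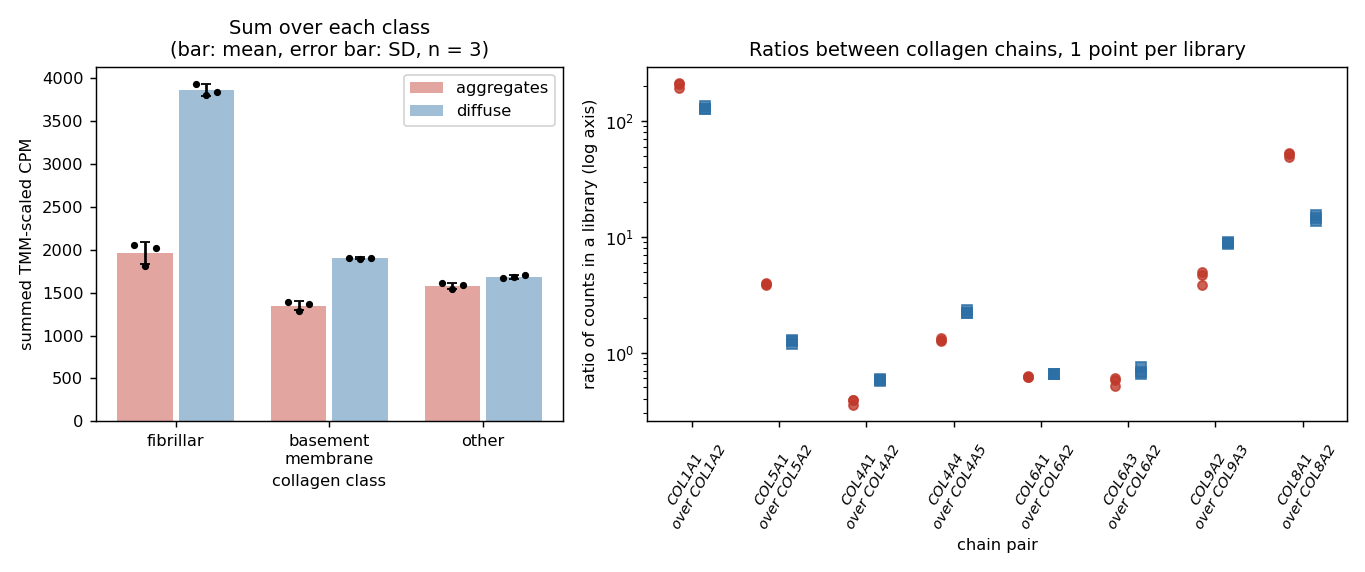
Left, summed TMM-scaled CPM of each collagen class (bars, mean; error bars, SD; points, the 3 libraries). Right, count ratios of 8 chain pairs on a log axis, 1 point per library, aggregates as red circles and diffuse as blue squares. The fibrillar bars stand at 1960 CPM in aggregates and 3854 CPM in diffuse cells and the bars of the other collagens at 1579 CPM in aggregates and 1684 CPM in diffuse cells, and the groups are apart for each ratio.

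Levels of different genes can be set side by side per kilobase of exon. On that scale COL1A1 led in both groups, at 142 to 161 CPM per kb in aggregates and 320 to 336 CPM per kb in diffuse cells. In aggregates COL12A1 (56.0 to 56.4), COL6A2 (49.5 to 53.1) and COL4A2 (48.2 to 50.9) followed, and the last pair overlapped. COL6A1 (31.5 to 32.9), COL4A1 (22.1 to 25.7), COL11A1 (15.4 to 18) and COL5A1 (12.0 to 13.3) came next, each below the one before in every library. In diffuse cells COL4A2 (59.8 to 60.3) and COL12A1 (57.0 to 60.8) overlapped at the second place, as did COL6A2 (45.2 to 47.5) and COL4A1 (44.7 to 46.1) below them, followed by COL6A1 (29.7 to 31.0), COL3A1 (25.1 to 26.1) and COL11A1 (23.7 to 24.4). COL3A1 thus ranked 7 in diffuse cells and 10 in aggregates, where it overlapped COL16A1 and COL6A3. COL1A2 ranked 25 in aggregates and 17 in diffuse cells, far below COL1A1 in both. With the length of the longest coding transcript in place of all exons, a choice added after the data were seen, COL1A1 held its first place. The order below it did not hold. In aggregates COL4A2 then ranked 2, COL6A2 3 and COL12A1 4, and COL3A1 ranked 12. In diffuse cells COL4A2 ranked 2, COL4A1 3, COL6A2 4 and COL12A1 5.

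Splicing was read from counts of spliced reads per intron, grouped into clusters of introns that share a splice site. Of 104 collagen clusters tested, in 21 genes, 9 differed between the groups (8.65%, against 5.02% of all clusters tested; edgeR diffSpliceDGE with Simes, adjusted p under 0.05). They lay in COL5A1, COL22A1, COL6A3, COL16A1, COL12A1 and COL4A2. The call depends on each library, as 4 to 8 collagen clusters were called when a library was left out: 4 without aggregates library 1 or 3 or diffuse library 3, and 5 without diffuse library 1. These counts can include clusters that are not among the 9, and every omission lost at least 1 of the 9 calls. The calls in COL5A1 and 2 of those in COL22A1 held in each of 9 alternatives.

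In COL5A1, an intron running from exon 4 to the last exon of the short non-coding transcript COL5A1-205 (chromosome 9, 134701334 to 134708473) was used less in aggregates. It took 0.585, 0.641 and 0.448% of the cluster's reads in aggregates, from 1 read in each library, and 11.5, 12.1 and 14.2% in diffuse cells, from 14, 16 and 16 reads. The remaining reads joined exon 4 to exon 5 of the coding transcript, so that the coding junction held 99.4 ± 0.099% in aggregates and 87.4 ± 1.40% in diffuse cells (cluster adjusted p = 2.5e-05). This gene's total level was the one that rose among type V chains.

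COL22A1 had 3 called clusters near its start on chromosome 8 (minus strand). An intron absent from GENCODE 29, 122 bases long and leaving the same donor of exon 4 as the annotated intron (138843962 to 138844083), took 13.9, 9.09 and 25.6% of reads in aggregates and 0.909, 2.44 and 0.42% in diffuse cells (cluster adjusted p = 2.7e-06). Exon 2, of 163 bases with 91 coding, was included in 71.3 ± 4.51% of reads in aggregates and 88.4 ± 2.96% in diffuse cells (cluster adjusted p = 0.00047). It holds the start of the coding sequence, and the junction that skips it is annotated in a transcript without a coding sequence. A further unannotated intron from exon 3 (138862954 to 138877749) was used less in aggregates, at 11.5, 7.30 and 11.7% against 21.9, 19.7 and 20.6% in diffuse cells. That cluster's call (adjusted p = 0.0372) was lost whenever a library was left out, with adjusted p-values of 0.0799 to 0.163.

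COL6A3, whose level did not pass, changed at exons that each encode a von Willebrand factor A domain of the amino end. Exon 4 of COL6A3-201 (603 bases, chromosome 2, 237387582 to 237388184) was included in 69.2, 73.8 and 79.3% of reads in aggregates and 54.0, 53.0 and 56.7% in diffuse cells (cluster adjusted p = 0.0139). The intron that skips exons 3 and 4 took 18, 14.7 and 11.4% of the cluster in aggregates and 28.7, 28.5 and 27.2% in diffuse cells. Exon 6 (600 bases, 237378636 to 237379235) was included in 99.0 ± 1.74% in aggregates and 92.4 ± 3.17% in diffuse cells (cluster adjusted p = 0.0203). Inclusion of exons 4 and 6 was therefore higher in aggregates, without overlap. Exon 3 (618 bases, 237394587 to 237395204), which lies in the cluster of exon 4, was rarely included and went the other way, at 0.714, 2.59 and 0.383% in aggregates and 5.61, 9.93 and 1.30% in diffuse cells, with overlapping groups. The exon 3 shares count only the junction from exon 2 to exon 4 as skipping. They leave out the intron that skips exons 3 and 4 together, and so overstate inclusion of exon 3. The exon 4 call was lost without aggregates library 3 (0.207) or diffuse library 1, 2 or 3 (0.0921, 0.0523 and 0.059), and the exon 6 call without aggregates library 1 or 3 (0.173 and 0.175) or diffuse library 1 or 3 (0.16 and 0.115).

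In COL16A1, exon 57 of 72 coding bases was included in 96.4, 94.0 and 93.4% of reads in aggregates and 87.0, 85.4 and 86.7% in diffuse cells (cluster adjusted p = 0.0058, and 0.0973 without aggregates library 1). In COL12A1, the intron that skips exons 3 to 17 of COL12A1-201, an annotated short form lacking 3492 coding bases, took 0.615, 0.621 and 0.824% of reads in aggregates and 1.30, 1.52 and 2.60% in diffuse cells. Its call (adjusted p = 0.0215) was lost without aggregates library 1, 2 or 3 (0.133, 0.153 and 0.0545) or diffuse library 3 (0.416). In COL4A2, an unannotated junction from exon 20 (chromosome 13, 110450455 to 110454004) had 8, 7 and 6 reads in aggregates and 0, 1 and 0 in diffuse cells, under 1% of the cluster throughout. That call (adjusted p = 0.0305) was lost without any library except diffuse library 2, at adjusted p-values of 0.0687 to 0.139.

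**Figure D4:**
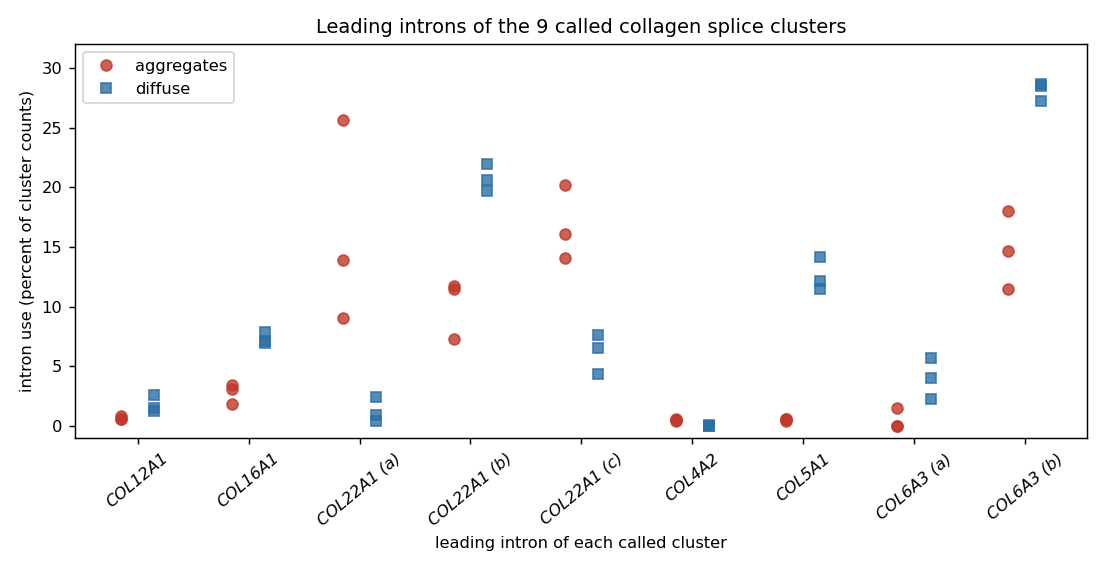
Use of the leading intron of each called collagen cluster, as a percent of the cluster's reads, 1 point per library (aggregates as circles, diffuse as squares). For COL22A1, a is the unannotated intron from exon 4, b the unannotated intron from exon 3 and c the junction that skips exon 2; for COL6A3, a skips exon 6 and b skips exons 3 and 4. The COL5A1 intron sits below 1% in aggregates and above 11% in diffuse cells.

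Genes that make, process, degrade or bind collagen were read from 7 lists, of which 126 of 140 members were tested. In aggregates 45 rose (35.7%) and 63 fell (50.0%), or 85.7% called, against 37.8% higher, 37.6% lower and 75.4% called of all genes tested. The counts of each list below are to be read against these shares, and the medians against the all-gene median of 0.01. Of 25 genes for collagen folding and modification in the endoplasmic reticulum, 15 rose, 5 fell and 5 did not pass (median 0.12). P4HA1, a catalytic subunit of the prolyl hydroxylase that stabilizes the helix, had 163, 146 and 160 CPM in aggregates and 73.3, 69.3 and 72.4 CPM in diffuse cells (log2 fold change 1.12). TMEM38B, an endoplasmic reticulum cation channel mutated in brittle bone disease, also rose (55.4 ± 0.0878 CPM in aggregates, 25.8 ± 1.21 CPM in diffuse cells, 1.10). Falling with the fibrillar collagens were SERPINH1, the collagen chaperone HSP47 (572 ± 9.98 CPM in aggregates, 865 ± 41.6 CPM in diffuse cells, -0.60), and CREB3L1, a transcription factor that activates COL1A1 in osteoblasts (14 ± 0.53 CPM in aggregates, 24.8 ± 0.293 CPM in diffuse cells, -0.82).

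Procollagen processing and crosslinking genes fell more often than they rose, with 4 higher, 9 lower and 3 not passing of 16 tested (median -0.21). The lysyl oxidase family, which crosslinks collagen and elastin, gave the named falls. LOXL4 had 87.4, 77.9 and 88.3 CPM in aggregates and 254, 238 and 250 CPM in diffuse cells (log2 fold change -1.55), and LOXL1 and LOXL2 fell by 0.83 and 0.66 on the log2 scale. PCOLCE2, an enhancer of procollagen C-proteinase, rose (26.0 ± 0.803 CPM in aggregates, 9.61 ± 0.29 CPM in diffuse cells, 1.44). Of 16 tested genes for collagen degradation or its inhibition, 8 rose and 8 fell (median 0.02). The inhibitors among them were TIMP1, which rose, and TIMP2 and TIMP3, which fell. MMP3, a matrix metalloproteinase, had 207, 233 and 208 CPM in aggregates and 6.84, 6.02 and 6.70 CPM in diffuse cells (log2 fold change 5.05). FAP (1.40), a serine protease that cleaves denatured collagen, and the membrane metalloproteinase MMP16 (0.98) rose, and the inhibitor TIMP3 fell to 52.4 ± 1.33 CPM in aggregates against 190 ± 7.61 CPM in diffuse cells (-1.86).

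Of 11 tested collagen receptors 2 rose and 5 fell (median -0.38). ITGB1, the beta chain shared by the collagen-binding integrins, rose to 1262 ± 74.9 CPM in aggregates against 782 ± 19.6 CPM in diffuse cells (log2 fold change 0.69), while the collagen receptor kinase DDR1 (-0.78), the type III collagen receptor ADGRG1 (-0.70) and the proteoglycan CSPG4 (-0.38) fell. All 18 basement membrane partners passed, with 9 rising and 9 falling (median 0.05), beside a median of -0.77 for the type IV collagens. The laminin chain LAMA1 had 569, 584 and 558 CPM in aggregates and 141, 135 and 140 CPM in diffuse cells (2.04). Falls included the laminin chains LAMA3 (0.845 ± 0.336 CPM in aggregates, 10.1 ± 0.901 CPM in diffuse cells, -3.59) and LAMA5 (-1.13) and the matricellular protein SMOC1 (-1.93). When changes were tested against a fold of 1.2, 11 of the 18 partners and 12 of the 25 folding genes were called.

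Among fibril-associated matrix proteins, 3 rose, 9 fell and 5 did not pass of 17 tested (median -0.39). THBS1, a matricellular activator of latent TGF-beta, had 208, 190 and 203 CPM in aggregates and 902, 842 and 904 CPM in diffuse cells (log2 fold change -2.14). The microfibril proteins MFAP2 (-0.99) and MFAP5 (-0.80) fell, and LUM, a proteoglycan that binds fibrils, rose (1.52). TGF-beta signalling genes and collagen transcription factors had the lowest median of the 7 lists, -0.58, with 18 falling, 4 rising and 1 not passing of 23 tested. SCX, a tendon transcription factor that activates COL1A1 and COL1A2, had 3.43, 2.49 and 3.14 CPM in aggregates and 33.3, 30.6 and 34.1 CPM in diffuse cells (-3.44). The ligand TGFB3 had 4.61, 4.33 and 4.25 CPM in aggregates and 24.5, 25.3 and 24.6 CPM in diffuse cells (-2.49), and the TGF-beta targets CCN2 (-1.02) and SKIL (-1.06) fell. Each gene named from these lists had groups that did not overlap, as did 76.2% of all genes tested. These genes were named for being called and for the size of their change, so this adds no support.

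**Figure D5:**
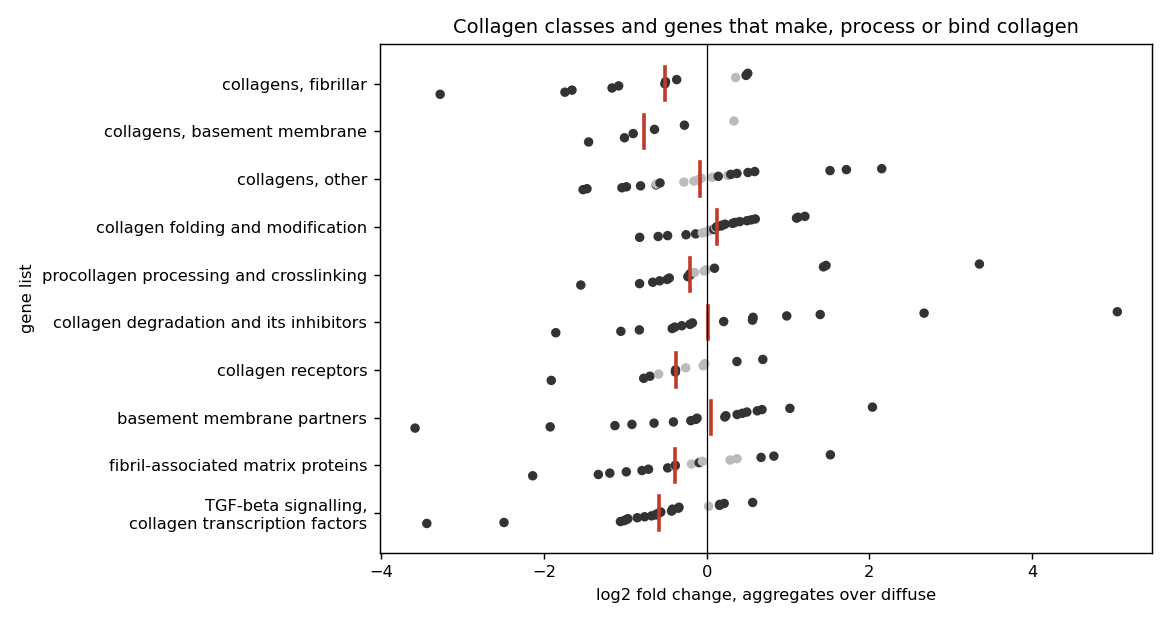
Log2 fold change, aggregates over diffuse, of every tested gene in the 3 collagen classes and the 7 lists. Dark points passed an adjusted p of 0.05, grey points did not, and red bars mark the median. Medians run from -0.77 for the basement membrane collagens to 0.12 for folding and modification.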

How the data were processed

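Polyadenylated RNA of 6 libraries was sequenced with a stranded kit, per the labels' protocols. fastp 0.23.2, STAR 2.7.11a and hg38 were used, per the submitters' processing notes, while the sources used here do not give the gene counter, its annotation or its strand setting. The deposited gene and intron tables hold whole-number counts, not normalized. Libraries within a group varied beyond counting error (chi-square 2.44 to 5.84 per degree of freedom).

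Counts were filtered (filterByExpr), scaled by TMM and tested with edgeR 4.0.16 (robust quasi-likelihood) in R 4.3.3 across all genes, with Benjamini-Hochberg adjustment at 0.05. Standard errors are the log2 fold change over the square root of F. Introns of at least 10 counts, in clusters of at least 2 introns and 10 counts per library, were tested with diffSpliceDGE. Exon inclusion is the mean count of both introns beside an exon, as a share of itself and the skipping count. Gene positions and exons came from GENCODE 29 and promoters from RefSeq, which held 32 of the 44 collagens. DESeq2 1.42.0, glmTreat, other scalings and filters, a GC and length correction (mgcv 1.9.3), a replicate block and omitted libraries served as alternatives. The code was tested on simulated data. The gene test recovered 76.1% of 1.5-fold, 86.6% of 2-fold and 100% of 4-fold changes. The splice test recovered 48% of 200 clusters of at least 600 counts in which 1 intron was changed 4-fold, so it can miss changes. Every tested collagen is named, with up to 4 called genes of at least 5 CPM per list by size of change. The collagens, classes and lists were chosen with earlier results of these data known.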

Additional observations from a re-analysis of the deposited data

How the results depend on the processing

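Over 14 alternatives, the 40 tested collagens and the genes named from lists gave 544 comparisons with the values reported: 520 kept direction and side of the threshold, 11 lost a call, 10 gained one and 3 reversed. The reversals were COL7A1 with a GC and length correction (0.096) and without diffuse replicate 2 (0.037, in a range from -0.15 over left-out libraries), and COL12A1 with that correction (0.077), all near 0. The correction's own construction changes values by GC content and length; the cause was otherwise not tested. Against 30 collagens called, alternatives called 25 to 32, except among genes of at least 5 CPM, where fewer genes are tested (20, with 13 lower). Testing against a fold of 1.2 called 12 folding genes in place of 20 and 11 basement membrane partners in place of 18. The fibrillar log2 ratio was -0.53 without COL1A1, and left-out libraries gave -1.01 to -0.92. Collagen splice clusters called ranged from 4 to 8 when a library was left out, counts that can include clusters not called in the main test. Deviations of same-numbered libraries correlated weakly (0.036, 0.083 and 0.060), yet each library correlated best with its own number. A pairing by replicate number can therefore not be dismissed, and the main test does not model it. With the replicate block, 32 collagens and 7 splice clusters were called. The splice clusters of COL4A2 (adjusted p = 0.0554) and of COL6A3 exon 6 (0.0576) did not pass. The gene levels of COL6A1 (0.0468) and COL6A3 (0.00015) newly passed. At 0.0212 CPM or more per count, collagens under 1 CPM rest on few reads.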
